A study of Mus musculus with 2 samples.

Results

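Endosomal sorting genes were described here as all genes whose symbol begins with Vps, Chmp or Snx followed by a digit. The rule found 75 genes, 35 Vps, 10 Chmp and 30 Snx, of 18510 annotated genes with at least 1 read. All 75 had a read in 1 or both libraries, 74 in replicate 1 and 71 in replicate 2, and 70 had a read in both. Long-read RNA sequencing, in which 1 read can cover a whole spliced transcript, was carried out on total RNA of the left cerebral cortex in 2 libraries. Both came from female mice aged 14 days of the B6CASTF1/J strain, a hybrid of C57BL/6 and CAST/EiJ parents, and 2 µg of RNA went into each. They form 1 group, labelled as biological replicates 1 and 2, with no treatment, other genotype or other tissue to compare. The description of replicate 1 may mean that several females were pooled, and the donor entry is the same for each library, so the spread between them may be partly technical. Tests between the libraries weigh their difference against counting error alone.

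Proteins taken up from the cell surface reach endosomes, where they are sent back or passed on to the lysosome. Retromer, retriever and many sorting nexins carry cargo back to the surface or the Golgi, and sorting nexins bind the endosomal membrane through a phosphoinositide-binding PX domain. The ESCRT complexes bend and cut membrane into the endosome for degradation, and the HOPS, CORVET, GARP and EARP complexes tether membranes before they fuse. Neurons rely on these routes to recycle receptors and to clear proteins from long processes, and mutations in several of the genes cause neurodegenerative disease.

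The libraries held 1072344 and 753520 mouse reads, of which 6182 (0.577%) and 4320 (0.573%) fell on the 75 genes. Levels are given as reads scaled to a library total of 1000000 (RPM), so 1 read was worth 0.933 RPM in replicate 1 and 1.33 RPM in replicate 2. Reads were counted as given, and levels were not divided by transcript length. Whether some reads are copies of the same cDNA molecule was not tested. Cortical markers such as Slc17a7 (1179 RPM) and Nrgn (2970 RPM) were abundant in both. Of 6 genes of myelinating oligodendrocytes, 5 were called lower in replicate 2, and together they came to 5764 and 3431 RPM. The choroid plexus list summed to 25.2 and 257 RPM, nearly all of it from Ttr. Of 4 striatal markers, Ppp1r1b was called lower in replicate 2 (282 and 180 RPM), and the list summed to 396 and 259 RPM. The part of these cell types in the values below was not tested, and in bulk tissue fewer cells of a type and less RNA per cell cannot be told apart.

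Short coding stretches that separate transcripts of these genes are shown first, because the isoform results turn on them. Each is read 5′ to 3′ from the GENCODE M21 transcripts (mm10); capitals mark the stretch that is coding in one form and absent or not coding in another, and lower case the 15 bases beside it in the spliced RNA. The 45 bases of Snx27-202 also lie in the last exon of Snx27-201, beyond its coding end.
Chmp1a exon 2, 20 bases, chr8:123210216-123210235, minus strand: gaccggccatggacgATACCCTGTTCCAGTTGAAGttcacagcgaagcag
Snx14 microexon, 27 bases, chr9:88400723-88400749, minus strand: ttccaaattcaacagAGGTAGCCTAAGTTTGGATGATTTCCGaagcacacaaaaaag
Vps29 exon 2 of Vps29-204, 12 bases, chr5:122356794-122356805, plus strand: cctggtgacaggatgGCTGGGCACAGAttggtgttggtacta
Vps54 stretch, 36 bases, chr11:21264630-21264665, plus strand: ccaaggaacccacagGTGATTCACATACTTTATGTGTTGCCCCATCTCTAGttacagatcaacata
Snx27-202 coding end, 45 bases, chr3:94501227-94501271, minus strand: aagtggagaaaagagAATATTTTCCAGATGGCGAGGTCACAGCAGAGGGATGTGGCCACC
Snx27-201 coding end, 6 bases, chr3:94502060-94502065, minus strand: aagtggagaaaagagGAATAT

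The endosomal sorting genes were read at a median of 59.0 RPM, against 10.8 RPM over all annotated genes with a read. The 75 genes all have a coding transcript, whereas the 18510 genes with a read include noncoding ones beside 14897 coding genes. A median over coding genes alone was not taken. Of the 75, 21 had a mean of 100 RPM or more, 44 lay from 10 to 100 RPM and 10 lay under 10 RPM. The 10 most abundant took 38.5% of the family's reads in replicate 1 and 39.1% in replicate 2. The plot of levels by role shows the retromer subunits from 83.6 to 309 RPM on average and the VPS13 genes from 1.86 to 18.1 RPM. Levels include reads on every class of model assigned to a gene. With reads on annotated transcripts only, 24 of the 75 levels were lower by over 1.5 times, among them Chmp1a (4.86 in place of 130.3 RPM), Snx32 (47.5 in place of 99.9 RPM), Snx27 (25.9 in place of 56.8 RPM) and Snx30 (7.98 in place of 25.2 RPM).

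**Figure D1:**
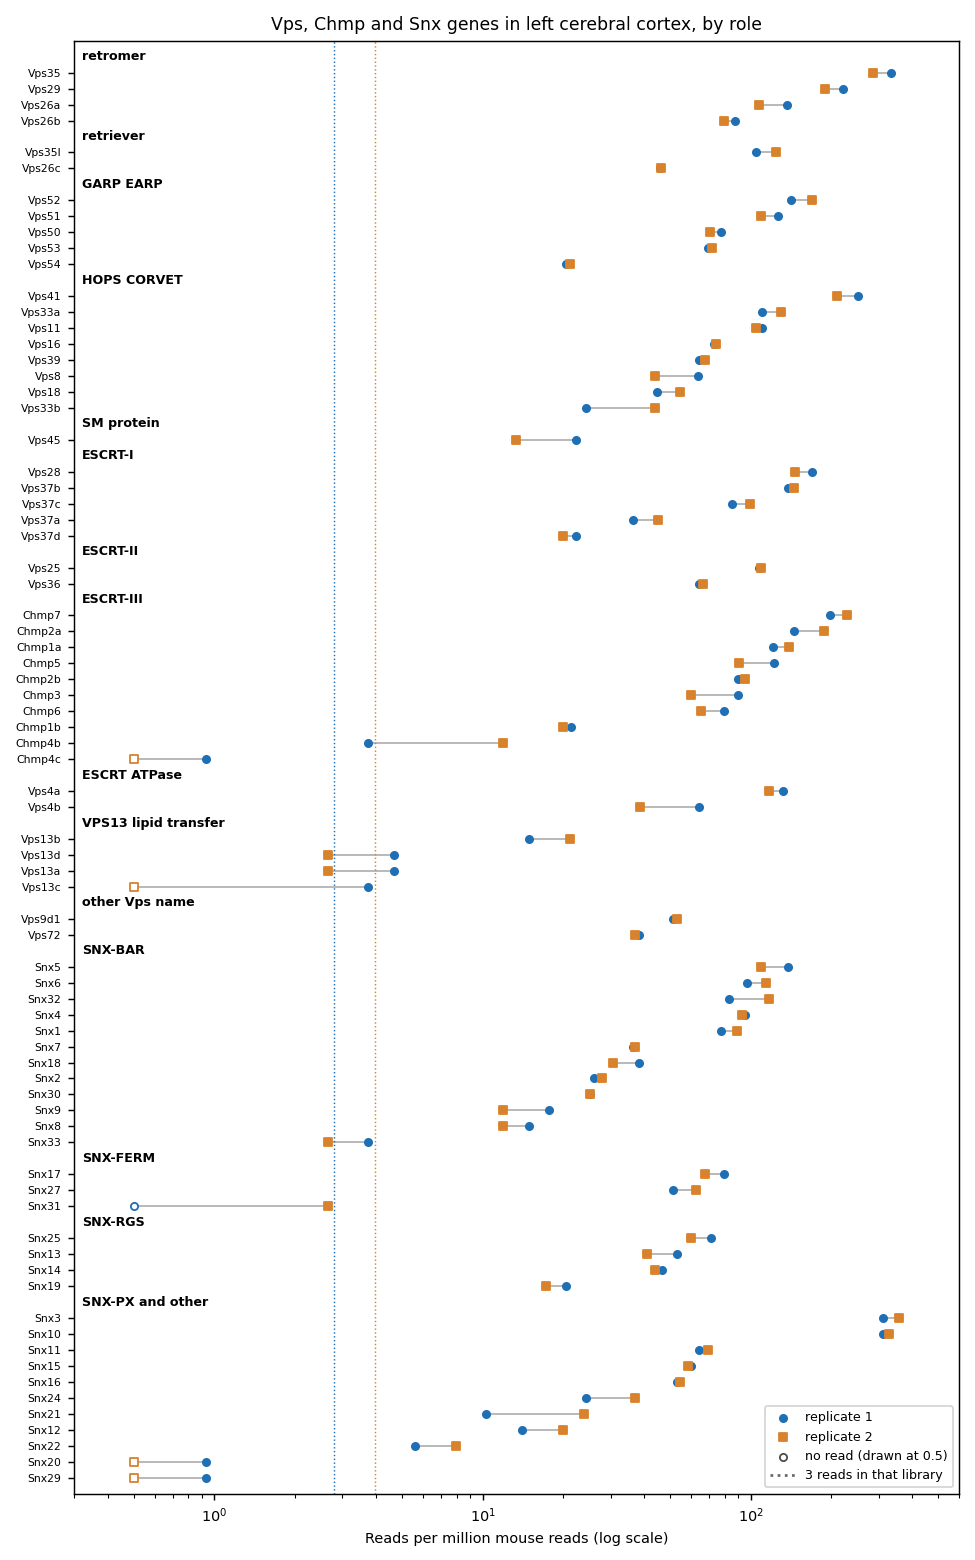
Level of each of the 75 genes in RPM (log axis), grouped by role, with 1 circle for replicate 1 and 1 square for replicate 2; open symbols have no read and dotted lines mark the level of 3 reads in each library. Snx3, Snx10 and Vps35 have the highest means, from 309 to 334 RPM, and Vps13c, Chmp4c, Snx20, Snx29 and Snx31 lack a read in 1 library.

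Retromer, the trimer that recycles cargo from endosomes, was led by its large scaffold Vps35, with 333 RPM in replicate 1 and 285 in replicate 2 (309 ± 33.7, SD, n = 2). Vps29, the small subunit that holds the far end of Vps35, had 220.1 and 188 RPM (204 ± 22.4). The arrestin-like subunit has paralogs, of which Vps26a had 137 and 107 RPM and Vps26b 87.7 and 79.6. All 4 retromer genes were lower in replicate 2, by log2 differences from -0.35 to -0.13, and none passed the test. In retriever, the related complex that recycles integrins, Vps35l had 104 and 125 RPM and Vps26c 45.7 and 46.5.

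Among the HOPS and CORVET tethers, Vps41, a HOPS subunit needed for fusion with lysosomes, was the most abundant at 252 and 209.7 RPM. Vps33a, the Sec1/Munc18-like subunit that grips SNAREs, followed with 110.0 and 130.1 RPM, and Vps11, a core subunit shared with CORVET, with 110.0 and 105 RPM. Vps16, Vps39, Vps8 and Vps18 had means from 49.6 to 73.5 RPM. Vps33b, the Vps33a paralog in another tether, was the least abundant of the 8 genes at 24.2 and 43.8 RPM. The GARP and EARP complexes share Vps51, Vps52 and Vps53. Vps52 had 141 and 169.9 RPM, Vps51 127 and 109 RPM and Vps53 69.0 and 71.7 RPM. The subunits that set the 2 complexes apart were lower than Vps52, with 77.4 and 70.3 RPM for the EARP subunit Vps50 and 20.5 and 21.2 RPM for the GARP subunit Vps54. Vps45, which acts on early endosomal SNAREs, had 22.4 and 13.3 RPM.

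ESCRT-I recognises ubiquitinated cargo. Vps28 led its members with 169.7 and 146 RPM, followed by Vps37b with 138 and 145 RPM and Vps37c with 84.9 and 99.5 RPM. The 4 Vps37 paralogs, of which an ESCRT-I complex holds 1, ran from Vps37b down to Vps37a (36.4 and 45.1 RPM) and Vps37d (22.4 and 19.9 RPM). In ESCRT-II, Vps25 had 107 and 109 RPM and Vps36 64.4 and 66.4 RPM. ESCRT-III proteins polymerise into the filament that cuts the membrane neck. Chmp7, which also acts in resealing the nuclear envelope, had 197 and 228 RPM, Chmp2a 145 and 187 RPM, and Chmp1a 121 and 139 RPM. Chmp2b, mutated in a form of frontotemporal dementia, had 89.5 and 95.6 RPM. The other subunits ran from Chmp5 (mean 106 RPM) through Chmp3 and Chmp6 to Chmp1b, a gene of 1 exon (mean 20.7 RPM).

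Chmp4b, the main filament-forming subunit in many cells, had only 4 and 9 reads (3.73 and 11.9 RPM), and its paralog Chmp4c 1 and 0. Of the Chmp4b reads, 4 and 7 lay on models labelled Genomic, the class of models without a matching splice chain, and 0 and 2 on its annotated transcript. Both values are far below those of Chmp2a and Chmp7. The ATPase that takes the filament apart is encoded by 2 genes. Vps4a had 131 and 117 RPM and Vps4b 64.4 and 38.5 RPM.

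Sorting nexins were the most uneven set. Snx3, a small PX protein that pairs with retromer, was the most abundant of all 75 genes at 312 and 356 RPM, with Snx10, a small PX protein known from work on osteoclasts, at 312 and 328 RPM. Of the other PX nexins, Snx11 had 64.4 and 69.0 RPM. Snx15, Snx16, Snx24, Snx21, Snx12 and Snx22 followed with means from 59.0 down to 6.78 RPM, while Snx20 and Snx29 had 1 read each in replicate 1 and none in replicate 2. A count of 0 in replicate 2 allows a level of up to 3.98 RPM, the value of 3 reads.

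Among the nexins with a BAR domain, which bends membrane into tubules, Snx5 had 138 and 109 RPM, Snx6 97.0 and 114 RPM and Snx32 83.0 and 117 RPM. These 3 are close paralogs that partner with Snx1 (77.4 and 88.9 RPM) or Snx2 (26.1 and 27.9 RPM). Snx4, which recycles the transferrin receptor, had 95.1 and 92.9 RPM, and Snx7, Snx18, Snx30, Snx9 and Snx8 had means from 36.8 down to 13.4 RPM. Snx33, an endocytic nexin with an SH3 domain, was the least abundant with 4 and 2 reads. In the FERM class, which binds cargo tails directly, Snx17 had 79.3 and 67.7 RPM, Snx27 51.3 and 62.4 RPM, and Snx31 0 and 2 reads. The group labelled SNX-RGS held Snx25 (70.9 and 59.7 RPM), Snx13 (53.2 and 41.1 RPM), Snx14 (46.6 and 43.8 RPM) and Snx19 (20.5 and 17.3 RPM). Of the names outside these complexes, Vps9d1 had 51.3 and 53.1 RPM and Vps72, a subunit of a chromatin remodelling complex despite its name, 38.2 and 37.2 RPM.

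The VPS13 proteins are very long bridges that move lipids between membranes, and their transcripts are the longest of the family, from 10838 to 15849 bases for the principal coding form. Vps13a and Vps13d had 5 and 2 reads each, Vps13c 4 and 0, and Vps13b 16 and 16. None of these reads was on an annotated full-length transcript. For Vps13b, 13 and 11 reads lay on a single-exon model of 3455 bases labelled Genomic at chr15:35928643-35932097, of which 1375 bases are annotated exon, all in the last exon. The longest spliced Vps13a model had 47 exons and 8025 bases, with 1 read.

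**Figure D2:**
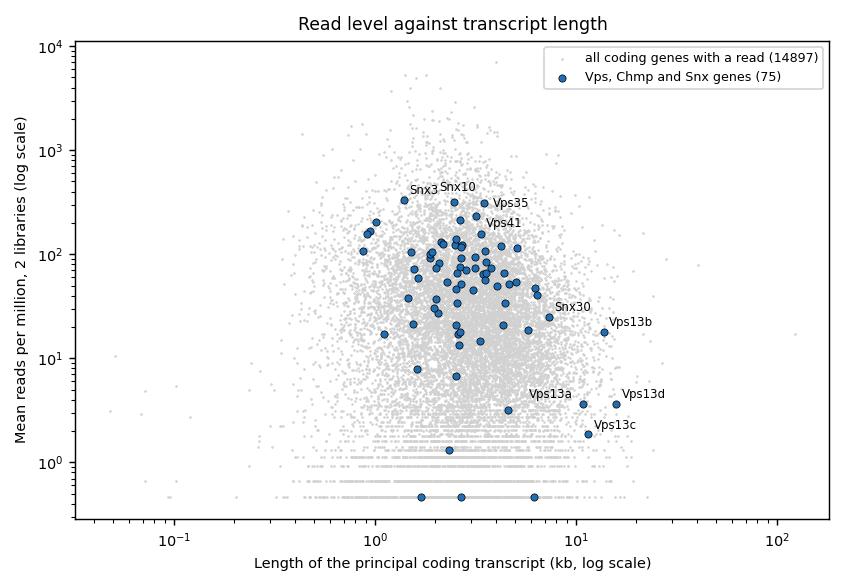
Mean RPM of the 2 libraries against the length of the principal coding transcript (both log axes), with grey points for 14897 coding genes with a read and blue points for the 75 endosomal sorting genes. The 4 VPS13 genes lie at the right edge of the family, 3 of them under 4 RPM and Vps13b at 18.1 RPM.

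Long transcripts were read less completely across all genes. For coding genes with 10 or more reads, the median share of a gene's reads on full splice chains was 93.6% where the principal transcript was under 2000 bases and 26.7% where it was 10000 bases or longer. The share of genes that reached 10 reads was 34.9% under 2000 bases, 55.1% from 2000 to 4000 and 62.9% from 4000 to 6000. Above that it was 61.5% from 6000 to 8000, 57.3% from 8000 to 10000 and 54.0% (204 of 378) for 10000 bases or longer. The part of length in the VPS13 counts was not tested. Of the 4 VPS13 genes, 1 reached 10 reads. The longest annotated multi-exon transcripts of the family with 2 or more reads in each library were Snx30-201 (7314 bases, 10 and 5 reads), Vps37a-201 (6379 bases, 27 and 25 reads) and Snx27-201 (6261 bases, 9 and 10 reads).

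No endosomal sorting gene passed the test of a difference between the 2 libraries. Of the 67 with 10 or more reads in all, 0 passed an adjusted p of 0.05 in the exact binomial test, against 100 of 11339 genes (0.882%), and the smallest adjusted p was 0.404. At an unadjusted p of 0.05, 8 of the 67 (11.9%) passed, against 8.60% of all genes tested. The median log2 ratio of replicate 2 over replicate 1 was 0.03 for the 67 and 0.0 for all genes. Within 1.5-fold lay 61 of the 67 (91.0%), compared with 79.7% of all genes tested. The 2 sets differ in depth, as 53 of the 67 had 50 or more reads in all, against 6104 of the 11339 genes. Genes of like depth were not compared.

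The 8 included 3 with lower values in replicate 2. Vps4b had 69 and 29 reads (log2 -0.73, adjusted exact binomial p = 0.404), Chmp3 96 and 45 (log2 -0.58) and Chmp5 131 and 68 (log2 -0.43). The other 5 had higher values there, led by Chmp4b with 4 and 9 reads (log2 1.59) and Snx21 with 11 and 18 reads (log2 1.19). Vps33b had 26 and 33 reads (log2 0.85), Snx32 89 and 88 (log2 0.49) and Chmp2a 156 and 141 (log2 0.36). Depth was 1.42 times greater in replicate 1, so equal read numbers stand for a higher level in replicate 2.

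**Figure D3:**
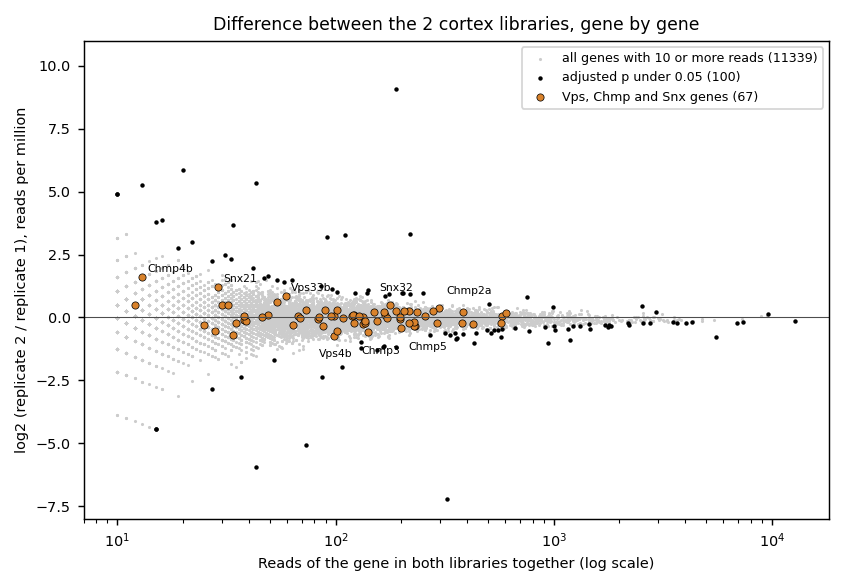
Log2 ratio of replicate 2 over replicate 1 in RPM against a gene's reads in both libraries together (log axis), for 11339 genes in grey, 100 genes with an adjusted p under 0.05 in black and 67 endosomal sorting genes in orange. None of the 67 is among the called genes, and the 8 named points have an unadjusted p under 0.05.

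Reads of the endosomal sorting genes were mostly full and annotated. Annotated transcripts held 80.3% of them in the first library and 77.4% in the second, with 95% Wilson intervals of 79.2 to 81.2% and 76.1 to 78.6%, compared with 72.7% and 71.2% over all annotated genes. Full splice chains, annotated or not, held 90% and 88.3%, compared with 83.4% and 81.8%. These intervals, like all others given here, cover counting error only.

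Of 50 genes with 20 or more full-chain reads in each library and more than 1 chain, the leading chain held a median of 86.2% of full-chain reads in replicate 1 and 87.0% in replicate 2, compared with 84.4% and 83.7% over all genes tested. It held 90% or more in both libraries for 14 of the 50, against 31.2% of all genes tested, and these included Snx3 (97.9 and 98.9%), Vps37b (98.2 and 98.8%) and Vps29 (95.2 and 96.4%). The leading chain was an annotated coding transcript for 49 of the 50. Its share differed between libraries for 0 of the 50 by Fisher's exact test with adjustment over all genes, against 12 of 4908 genes (0.244%). At an unadjusted p of 0.05, 2 of the 50 passed, against 4.99% of genes. They were Snx24 (72.0 and 96.3%) and Chmp7, where the leading chain held 192 of 204 and 146 of 167 reads.

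**Figure D4:**
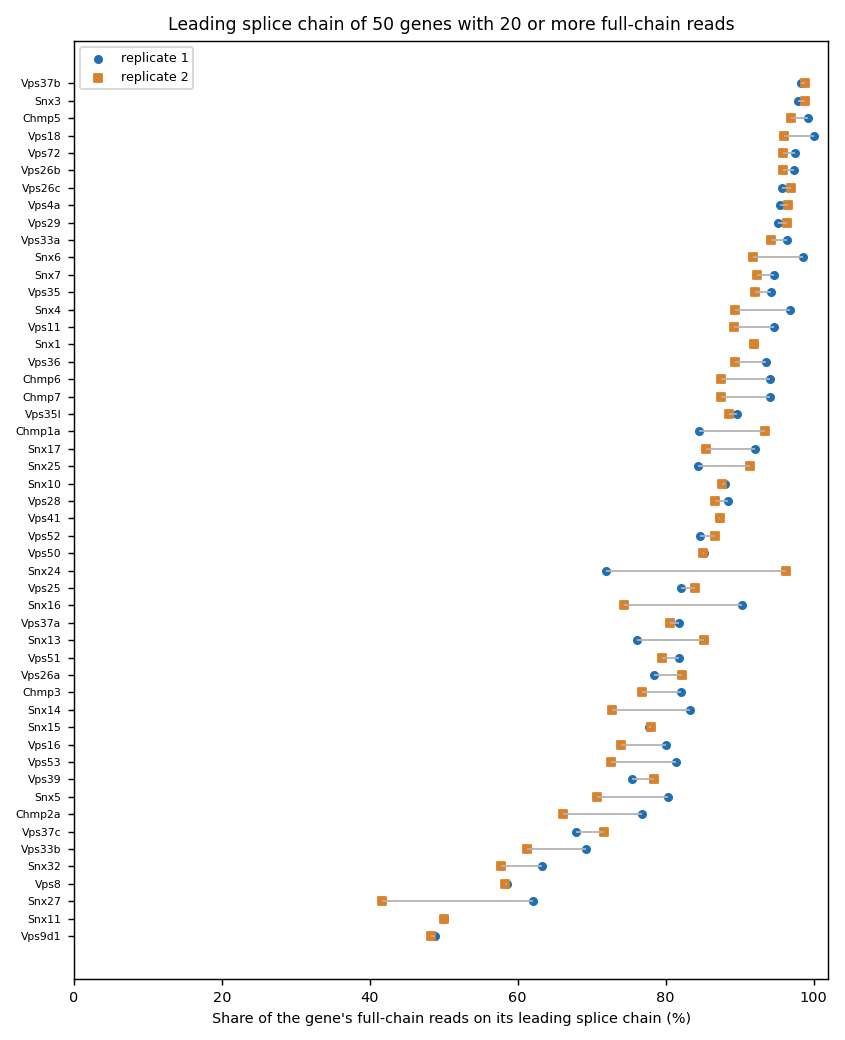
Share of each gene's full-chain reads on its leading splice chain (%), with circles for replicate 1 and squares for replicate 2, ordered by the mean. Vps9d1, Snx11 and Snx27 are at the foot, where the mean share is 48.6 to 51.9%, and Vps37b, Snx3 and Chmp5 are at the top, above 97% in replicate 1.

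The exception among leading chains was Chmp1a (chr8:123204264-123212763, minus strand), an ESCRT-III subunit. Its leading chain is not in the annotation and held 104 of 123 full-chain reads in replicate 1 (84.6%, 77.1 to 89.9%) and 86 of 92 in replicate 2 (93.5%, 86.5 to 97.0%). The annotated Chmp1a-201 carries the 20-base exon 2 printed above, and 6 of 120 reads spanning that region held the exon at its annotated sites in replicate 1 (5.0%, 2.31 to 10%) and 1 of 92 in replicate 2 (1.09%, 0.192 to 5.90%). In the leading chain exon 1 runs 25 bases further downstream and joins exon 3 directly, a net difference of 5 bases from Chmp1a-201. A rarer chain, with 3 and 2 reads, lengthens exon 3 by 20 bases in place of exon 2. In a further 6 and 2 of the spanning reads the intron between exon 2 and exon 3 was kept, and so were the bases of exon 2. No read joined exon 1 to exon 3 at their annotated sites. The reads themselves were not used here, so the placement of these bases by the alignment was not tested.

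Of the 50 genes, 2 had a second chain at 20% or more in both libraries. In Snx11, Snx11-202 held 50% of full-chain reads in both libraries (31 of 62 and 24 of 48) and Snx11-201 24.2 and 27.1%. The 2 transcripts encode the same 271 codons, and Snx11-201 carries an additional 60-base exon outside the coding sequence. In Snx27, which returns receptors with PDZ-binding tails to the neuronal surface, Snx27-202 held 18 of 29 reads (62.1%, 44.0 to 77.3%) and 10 of 24 (41.7%, 24.5 to 61.2%), and Snx27-201 held 9 (31%) and 10 (41.7%). These transcripts differ in the start of the last exon and so in the end of the protein. Snx27-202 encodes 539 codons ending in the 45-base stretch printed above, and Snx27-201 encodes 526 ending in the 6-base stretch. The intervals of the 2 libraries overlap, and the share of Snx27-202 did not pass the exact test (p = 0.173, adjusted p = 1).

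Other isoform pairs were chosen after their values were seen. Vps8, a CORVET subunit, had Vps8-203 at 58.6 and 58.3% and Vps8-204 at 15.5 and 33.3%. These forms of 1429 and 1427 codons differ by 4 and 2 bases at the ends of neighbouring exons. Vps54, mutated in the wobbler mouse with motor neuron degeneration, had 9 and 6 reads of Vps54-202 and 7 and 4 of Vps54-201, which carries the 36-base stretch printed above and so 977 rather than 965 codons. For Snx5 and Chmp2a the first and second transcripts encode the same protein length and differ at the 5′ end. Snx5-201 held 80.3 and 70.7% and Snx5-202 15.5 and 21.3%, and Chmp2a-201 held 76.9 and 66.1% and Chmp2a-203 10.4 and 18.3%.

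Cassette exons, which a read either holds or skips between the same neighbours, were counted where 20 or more reads spanned them in each library. There were 82 in 40 endosomal sorting genes, and 13 of them in 10 genes were held in 5 to 95% of spanning reads on average (15.9%, compared with 20.4% over all genes). Inclusion differed between libraries for 0 of the 82 by Fisher's exact test with adjustment over all exons, against 1 of 8076 (0.0124%). At an unadjusted p of 0.05, 2 of the 82 passed, against 1.16% of exons. They were the Snx16 exon described below and a 74-base exon of Snx17, held by 0 of 77 and 4 of 48 reads.

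**Figure D5:**
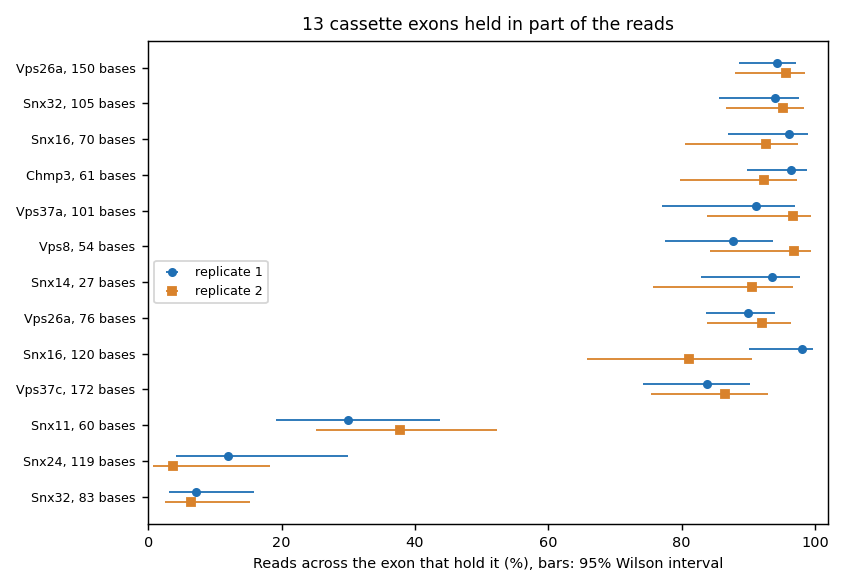
Share of spanning reads that hold each of 13 cassette exons (%), with circles for replicate 1, squares for replicate 2 and bars for 95% Wilson intervals. The exons fall into 10 that most reads hold and 3, in Snx11, Snx24 and Snx32, that fewer than 40% of reads hold.

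The Snx14 microexon printed above, 27 coding bases of a nexin whose loss causes cerebellar ataxia, was held by 44 of 47 spanning reads in replicate 1 (93.6%, 82.8 to 97.8%) and 29 of 32 in replicate 2 (90.6%, 75.8 to 96.8%). A 54-base coding exon of Vps8 was held by 87.7% and 96.9%, and its intervals (77.5 to 93.6% and 84.3 to 99.5%) overlap. Both keep the reading frame. A 120-base coding exon of Snx16, an endosomal nexin, was held by 52 of 53 reads (98.1%) and 30 of 37 (81.1%), the widest gap of the 13 (exact p = 0.00754, adjusted p = 1). It also keeps the frame.

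Several other coding exons have a length that is not a multiple of 3. A 76-base exon of Vps26a was held by 90% and 92.1% of spanning reads, a 172-base exon of Vps37c by 83.8 and 86.4% and a 61-base exon of Chmp3 by 96.3 and 92.3%. A 101-base exon of Vps37a was held by 91.2 and 96.8% and a 70-base exon of Snx16 by 96.2 and 92.7%. Exons of 150 bases in Vps26a (94.3 and 95.7%) and 105 bases in Snx32 (94.0 and 95.2%) keep the frame. The remaining 3 lie outside the annotated coding sequence. The 60-base Snx11 exon was held by 30% and 37.8%. An unannotated 83-base exon of Snx32 was held by 7.25 and 6.35% and one of 119 bases in Snx24 by 12% and 3.70%.

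Exons of 30 bases or fewer were looked at because they are easily missed, and those named here were chosen after their values were seen. The 12-base exon of Vps29 printed above was in 0 of 228 and 0 of 137 spanning reads. By counting error alone this allows a share of up to 1.32% and 2.19%. The placement of so short an exon by the alignment was not tested. The 25-base exon of Vps35l was in 100 of 100 and 88 of 89, and the 29-base exon of Vps28 in 95.5% and 92.4%. These spanning reads need not use the same neighbouring splice sites. Counted as a cassette exon between the same neighbours, the Vps28 exon was held by 169 of 170 and 97 of 97 reads.

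Outside the annotation, 507 full chains of these genes were read, and 386 of them had a single read. In both libraries, with 2 or more reads in 1 of them, 55 were found (10.9%, compared with 11.2% over all genes), whereas 63.2% of the annotated chains were. Unannotated chains took 10.9% and 12.4% of the family's full-chain reads. Chains with 5 or more reads in each library numbered 6, including that of Chmp1a. Vps26a had 12 and 5 reads of a chain without its 76-base exon, Snx15 8 and 7 reads of a chain that keeps the 202-base intron at chr19:6123951-6124152, and Vps51 8 and 6 reads of a chain with an acceptor site 66 bases away from the annotated one. Vps37c had 11 and 8 reads of a chain with a donor site 170 bases from that of Vps37c-204. Chmp2a had 5 and 8 reads of an 11-exon chain that runs into the region upstream of the gene.

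In 5 of the genes with 10 or more reads in each library, 30% or more of the reads in both were on incomplete chains or on models labelled Genomic, namely Snx27, Snx30, Snx19, Snx21 and Vps13b. In Snx27, 23 and 20 reads lay on a single-exon model of 3728 bases at chr3:94497544-94501271, all annotated exon. On the minus strand the model begins exactly at the last exon of Snx27-202, but only 1959 of its bases lie in that exon. The other bases, down to 94497544, are annotated exon of Snx27-201 and not of Snx27-202. Which of the transcripts these reads came from was not tested. Snx27 also had the most reads on antisense models, 41 and 36 of 237 and 230 over 51 genes. The models carry a strand, and antisense models were counted apart from those of the gene. The counting is not stated to use strand, so whether each read was placed on its true strand was not tested. In Snx30 a stretch of the last exon was labelled Genomic in replicate 1 (17 reads, chr4:59898908-59904426). A longer stretch was labelled incomplete in replicate 2 (10 reads, chr4:59898908-59904737), so overlapping models with the same start carry different labels. At the last exon of Vps37b, replicate 1 had 32 reads on a Genomic model of 187 bases and replicate 2 had 23 on an incomplete model of 1879 bases with the same downstream end. For Snx32, 13 and 16 reads lay on a model of 7 bases.

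Genes that work with the family were taken from 5 lists of 72 symbols, of which 70 were in the annotation and all 70 were read. The other two, Dscr3 and 9030624J02Rik, are older symbols of Vps26c and Vps35l. Of 65 partners with 10 or more reads, 0 were called in either direction, against 0.882% of all genes tested, and 6 had an unadjusted exact binomial p under 0.05, against 8.60%. The endosomal Rab GTPases were the most abundant, with Rab7 of late endosomes at 613 ± 26.0 RPM, Rab11b of recycling endosomes at 475 ± 16.7 RPM and Rab5a of early endosomes at 209 ± 8.75 RPM. Among ESCRT partners, Tsg101, the ESCRT-I subunit that binds ubiquitin, had 195 and 165 RPM, Vta1, an activator of Vps4, 108 and 88.9 RPM, and Ubap1 89.5 and 61.0 RPM.

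The WASH and Commander genes, which act with retromer and retriever, were led by Commd4 (109 and 104 RPM), Washc2 (104 and 94.2 RPM) and Commd8 (55.0 and 96.9 RPM). Becn1, a subunit of the kinase complex that makes the lipid bound by PX domains, had 204 and 199 RPM, ahead of Rabep1 (73.7 and 65.0 RPM) and Uvrag (68.1 and 63.7 RPM). Of the cargo receptors, the mannose 6-phosphate receptor M6pr had 105 and 113 RPM, Sort1 63.4 and 67.7 RPM and Lrp1 55.0 and 66.4 RPM. Sorl1, a retromer cargo receptor linked to Alzheimer's disease, had 77 and 25 reads (log2 -1.09, adjusted exact binomial p = 0.06), the largest gap of the 6 and not called.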

How the data were processed

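The authors deposited raw read counts per transcript model and the models' coordinates for each library, aligned to mm10 with GENCODE M21 per the file headers; the annotation source field of unannotated models names TALON. The sources used here name neither an aligner nor versions. Each model is assigned by the authors to 1 gene and class (annotated, unannotated combination or site, incomplete, Genomic, antisense, intergenic). Counts were summed per gene and scaled to 1000000 mouse reads. Model lengths and exon numbers, the other deposited columns, were used as given. Genes that overlap or share near-identical sequence are uncertain.

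Models were matched between libraries by intron positions. Genes with 10 or more reads in all were tested with a two-sided exact binomial test; log2 ratios use a pseudocount of 0.5 reads. Leading chains and cassette exons (20 or more reads in each library) were tested with Fisher's exact test. All p-values were Benjamini-Hochberg adjusted over all features, with a threshold of 0.05. The tests were run on simulated data drawn with counting error alone, so spread between libraries beyond counting error was not covered. Alternatives were other model classes, scaling with edgeR 4.0.16 (TMM) or DESeq2 1.42.0 size factors, other minimums, and leaving out a library. Python 3.11.15 and scipy 1.17.1 were used. Depth was 1072344 and 753520 mouse reads, and a count of 0 allows 3 reads (2.80 and 3.98 RPM).

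For each role, the rule named up to 3 of the most abundant genes, the least abundant, those with no read in a library and any called; the other members are also given, by value or range, so that each is accounted for. Chains, exons and models were named by read minimums given beside them. The 75 genes and the partner and marker lists were chosen with earlier results of these data known.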

Additional observations from a re-analysis of the deposited data

How the results depend on the processing

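No paired analysis was possible because the 2 libraries form 1 group. The count of endosomal sorting genes that differed between libraries was 0 under all 8 alternatives run, with 53 to 75 genes tested, and for cassette exons 0 under both alternatives. For leading chains it was 0 with a minimum of 10 full reads and with annotated chains only, and 1 with incomplete chains also counted: Vps37b, with 112 of 116 and 83 of 109 reads (adjusted Fisher's exact p = 0.000452), where the last-exon reads carry different labels in each library. The median level of the 75 genes, 59.0 RPM, was 44.5 with annotated transcripts only, 54.2 without Genomic models, and 59.7 to 64.3 when 1 library was left out. Over all genes, the count differing between libraries went from 100 to 46 with annotated transcripts only and to 175 without Genomic models. The count of leading chains went from 12 to 1 with annotated chains only and to 144 with incomplete chains counted, and that of cassette exons from 1 to 0 with 10 spanning reads and to 4 with incomplete models left out. Unannotated chains found in both libraries fell from 55 to 31 when 2 reads in each were asked. Fewer genes and reads enter the settings that drop a class; otherwise the cause was not tested. The 8 log2 ratios named kept their direction wherever they could be computed; with annotated transcripts only and with 50 or more reads Chmp4b and Snx21 fell under the minimum, as did Chmp4b without Genomic models. With annotated transcripts only, 53 of the 75 levels moved by more than their SD and 24 by over 1.5 times. Without Genomic models, 15 moved by more than their SD and 6 by over 1.5 times, including Snx27 from 56.8 to 32.8 RPM and Vps13b from 18.1 to 4.05. Assigning models to the gene of largest exon overlap moved 1 level by more than its SD, Vps25 from 108 to 109.9 RPM, and Chmp2a from 166 to 152 RPM within its SD. Low depth limits 8 of the 75 genes, which had under 10 reads and entered only the test with no filter.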
